A study of Mus musculus with 12 samples.

Results

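The regions described here are the highest-scoring called sites of transcription initiation in leptonema/zygonema, divided by whether the same place was also called in diplonema. They were chosen by their dREG score, as the autosomal peaks in the top 10% of the leptonema/zygonema list. They are called strong below, which refers to this calling score and not to a measured amount of initiation. This gave 6919 sites out of 71107 peaks in that list. A site was kept when it shared at least 1 bp with a diplonema peak and lost when it did not. By this rule 6360 sites were kept (91.9%, 95% Wilson interval 91.3% to 92.5%) and 559 were lost (8.08%, 7.46% to 8.74%). Among all 68876 autosomal leptonema/zygonema peaks, 51.4% had no diplonema peak. The score of 1 list and the overlap with another chose the members, so these shares are a description, and no test was made on them.

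The study measured nascent RNA by leChRO-seq, a chromatin run-on assay in which engaged RNA polymerases extend their transcripts with biotinylated nucleotides, in spermatocytes of adult wild-type mice. Cells enriched for leptonema/zygonema, pachynema and diplonema were obtained by STAPUT, a sedimentation at unit gravity, with 4 libraries per substage and 12 in all. The animals were of C57Bl/6J or DBA/2J background, and the labels give the genotype as WT for every library. The 4 libraries of a substage were merged before peaks were called, so each substage is 1 list with no replicate spread, and the fractions are enriched, not pure.

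dREG is a machine-learning method that finds the pattern left by RNA polymerase II where it starts in both directions, which happens at promoters and at enhancers. In leptonema and zygonema the chromosomes condense, receive programmed double-strand breaks and begin to pair. In pachynema they are fully synapsed, and in diplonema the synaptonemal complex comes apart. Sites that start RNA synthesis in the earliest of these substages can therefore be followed into the last by asking whether a peak is called at the same place.

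The lists hold no read counts. The study gives a normalisation factor per library that combines library size with relative activity, which was not used, so the depth behind the lists was not compared here. The diplonema list was the shortest, with 38603 peaks against 68352 in pachynema. Its scores ran from 0.231 to 1.43 with a median of 0.532, against 0.246 to 1.63 with a median of 0.586 in leptonema/zygonema. Scores were therefore not compared directly between lists, and each peak was given its percentile within its own list. The lists differ in length, so a percentile is a rank among the peaks called in that substage, and a lower percentile in a shorter list does not show a fall in activity. A lost site is one without a call, not one shown to be silent, and lower activity cannot be told apart from lower power to call peaks in the pooled diplonema libraries.

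Marker genes of the labelled cells were looked up, counting a gene as called when a peak lay under 1000 bp from any of its transcription start sites (TSSs). The share of all genes called in each list is not given, so these counts are description only. All 11 markers of leptonema/zygonema were called in that list, among them Sycp1 and Sycp3, which encode parts of the synaptonemal complex, and Dmc1, the meiotic recombinase. Of these, 10 were also called in diplonema. The exception was Stra8, the regulator of meiotic entry, which was called in leptonema/zygonema and pachynema and had no diplonema peak. All 6 markers of pachynema and diplonema were called in the 3 lists. Markers of spermatids were called for 4 of 5 genes in each list, and markers of spermatogonia for 4 of 5 in leptonema/zygonema and 3 of 5 in diplonema. The spermatid genes Prm1 and Prm2 had the same best score in each list. Counts of germ cell markers were thus alike in the lists and do not tell the substages apart. No marker of Leydig cells (5 genes), peritubular cells (2), endothelium (3) or immune cells (4) was called in leptonema/zygonema. In diplonema none of these was called, and in pachynema only Cyp11a1 was. Of 4 Sertoli cell markers, Sox9 and Gata4 were called in leptonema/zygonema. Sox9, Gata4 and Wt1 were called in both later lists, and the part of Sertoli cells in the kept and lost calls was not tested. None of these 5 spermatogonial markers or the somatic markers had a strong site, which is given without the share over all genes.

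The sequences at the centre of the 5 highest-scoring lost sites and of the 2 highest-scoring kept sites show what these regions look like. Each is the plus strand of GRCm38 (mm10), 200 bp around the middle of the peak, read from the RefSeq assembly. Capitals mark matches, on either strand, to any of 13 short motifs counted below. Each line is named by the gene with the nearest TSS.
Eps15l1, lost, chr8:72390306-72390505: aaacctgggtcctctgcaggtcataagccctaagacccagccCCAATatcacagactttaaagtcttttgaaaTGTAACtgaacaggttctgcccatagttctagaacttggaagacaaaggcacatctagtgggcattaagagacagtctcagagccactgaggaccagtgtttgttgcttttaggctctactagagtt
Impad1, lost, chr4:4782541-4782740: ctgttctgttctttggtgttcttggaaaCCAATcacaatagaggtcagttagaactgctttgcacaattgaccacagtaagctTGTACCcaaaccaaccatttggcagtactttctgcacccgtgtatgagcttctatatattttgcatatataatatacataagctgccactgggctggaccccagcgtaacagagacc
Fry, lost, chr5:150373366-150373565: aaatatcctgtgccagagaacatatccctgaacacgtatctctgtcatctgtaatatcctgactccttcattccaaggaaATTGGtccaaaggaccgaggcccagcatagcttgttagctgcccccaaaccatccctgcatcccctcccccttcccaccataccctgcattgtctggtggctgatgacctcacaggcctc
Rmdn2, lost, chr17:79626471-79626670: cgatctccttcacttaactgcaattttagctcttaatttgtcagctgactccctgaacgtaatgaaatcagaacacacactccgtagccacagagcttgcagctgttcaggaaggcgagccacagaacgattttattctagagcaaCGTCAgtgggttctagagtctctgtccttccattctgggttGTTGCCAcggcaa
Sik3, lost, chr9:46046601-46046800: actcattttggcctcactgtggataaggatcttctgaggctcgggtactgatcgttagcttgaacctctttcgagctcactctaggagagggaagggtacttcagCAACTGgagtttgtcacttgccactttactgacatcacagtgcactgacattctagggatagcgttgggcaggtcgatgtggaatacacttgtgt
Ttll5, kept, chr12:85904086-85904285: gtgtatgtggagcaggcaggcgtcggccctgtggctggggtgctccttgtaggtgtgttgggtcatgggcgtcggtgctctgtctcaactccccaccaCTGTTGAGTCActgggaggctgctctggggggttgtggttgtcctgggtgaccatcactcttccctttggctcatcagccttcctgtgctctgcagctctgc
Bcl7b, kept, chr5:135168731-135168930: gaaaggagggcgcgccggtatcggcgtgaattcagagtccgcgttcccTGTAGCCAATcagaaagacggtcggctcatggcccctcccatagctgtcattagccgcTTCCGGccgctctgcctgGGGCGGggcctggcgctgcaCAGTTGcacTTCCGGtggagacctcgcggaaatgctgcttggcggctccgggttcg

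Only the Rmdn2 site among these 5 lost sites lay at a TSS, and the other 4 were intronic. Among the lost windows Eps15l1 held no CpG, Impad1 and Fry 2 each, Sik3 5 and Rmdn2 7. Of the kept windows the intronic Ttll5 site held 4, and the promoter of Bcl7b, a subunit gene of the BAF chromatin remodelling complex, held 20. CCAAT or its complement stood in the Eps15l1, Impad1 and Fry windows. The Rmdn2 window held GTTGCCA, a match to the RFX motif, and CGTCA, a match to the CREB motif. The kept Bcl7b window held a GC box, a CCAAT box, 2 ETS matches, a MYB match and a DMRT match.

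The lost share depended on the score, which the rule used. In the lowest 10% of the leptonema/zygonema list, 81.5% of autosomal peaks had no diplonema peak, and in the 10% just under the strong sites 21.05% had none. Within the strong sites the lost share went from 11.8% in the lowest 20% by score to 4.63% in the highest 20%. Distal sites, those 1000 bp or more from any TSS, went from 25.1% to 7.13%. Proximal sites, those under 1000 bp from a TSS, went from 4.47% to 2.69%, with the lowest share, 1.81%, in the bin just under the highest. The threshold was a score of 1.17, at which 50 peaks of the list were tied. Just inside it were the promoters of Mrpl30 and Gorab and an intronic site near Gm23734, all at 1.17 and all kept. Just outside, at 1.169, the promoter of Mknk2 and an intergenic site near Gm47999 had a diplonema peak, and an intergenic site near 1700021A07Rik had none.

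**Figure D1:**
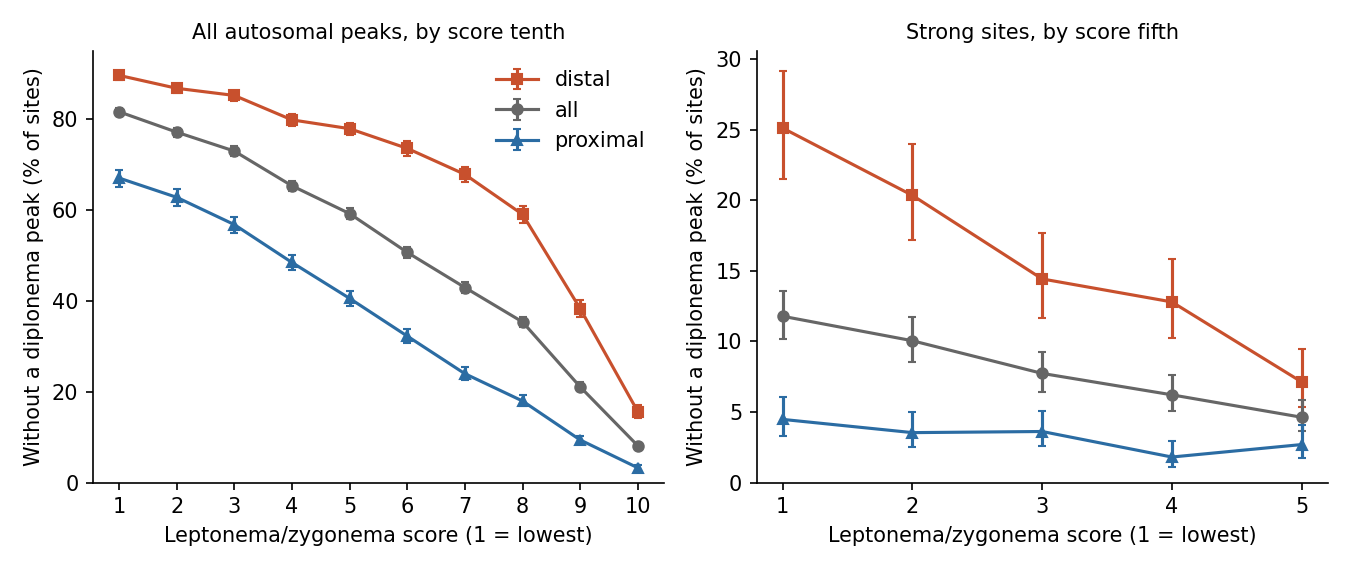
Share of leptonema/zygonema sites with no diplonema peak (y axis, %) against the score rank of the site (x axis), for all autosomal peaks in bins of 10% (left) and for strong sites in bins of 20% (right); proximal sites (triangles), distal sites (squares) and all sites (circles), with 95% Wilson intervals. In the highest bin on the left 3.25% of proximal and 15.6% of distal peaks had no diplonema peak.

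Kept and lost sites differed in where they lay. Of the kept sites 4071 were proximal (64.0%, 62.8% to 65.2%), against 137 of the lost sites (24.5%, 21.1% to 28.2%). Introns held 960 kept sites (15.1%) and 179 lost sites (32.0%). Intergenic sequence held 1249 kept (19.6%) and 228 lost (40.8%), and exons held 80 kept (1.26%) and 15 lost (2.68%). Seen from the other side, 3.26% of proximal strong sites were lost (137 of 4208) and 15.6% of distal ones (422 of 2711). Among the distal classes the share barely varied, at 15.8% in exons, 15.7% in introns and 15.4% in intergenic sequence. Outside the top 10% the same order held, with 36.8% of proximal and 75.2% of distal peaks lost. A TSS lay inside the peak at 60.02% of kept and 20.8% of lost sites, against 25.2% of all autosomal peaks. Of all autosomal peaks 50.5% were proximal, 20.9% intronic, 25.7% intergenic and 2.84% exonic.

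**Figure D2:**
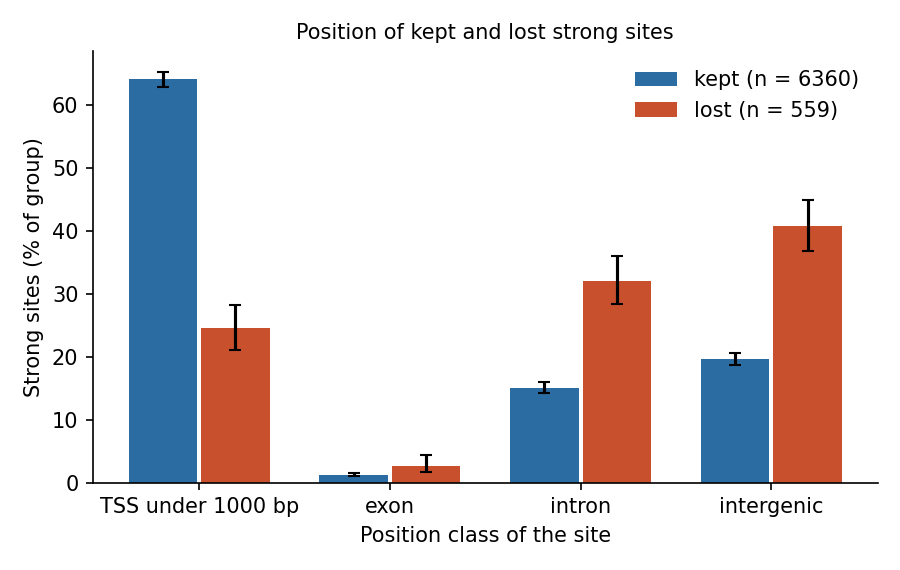
Share of the 6360 kept and the 559 lost strong sites (y axis, % of each group) in each position class (x axis), with 95% Wilson intervals that cover the counting of sites only. Proximal sites made up 64.0% of the kept and 24.5% of the lost group, and introns and intergenic sequence 15.1% and 19.6% of the kept against 32.0% and 40.8% of the lost.

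Distal kept and lost sites were alike in their distance to genes. The median distance to the nearest TSS was 17657 bp for kept and 18102.5 bp for lost distal sites. Intronic sites were also set in genes of like status. The host protein-coding gene had a diplonema peak at a TSS for 486 of 810 kept intronic sites (60%, 56.6% to 63.3%) and for 93 of 147 lost ones (63.3%, 55.2% to 70.6%). Most lost intronic sites in a protein-coding gene thus lay in one with a diplonema peak at some annotated TSS, which can be an internal start. How common this is over all intronic peaks or all genes is not given, so these shares are description only. The nearest gene was protein-coding for 68.0% of kept and 47.0% of lost sites, against 64.0% of all autosomal peaks. It was a processed pseudogene for 8.47% and 16.3%, against 9.49%, and a lincRNA gene for 10.8% and 15.9%, against 11.1%. Within the distal sites the groups were close, with a protein-coding gene nearest to 41.2% of kept and 39.8% of lost sites, a processed pseudogene to 21.1% and 20.6% and a lincRNA gene to 14.8% and 15.4%. Within the proximal sites a protein-coding gene was nearest to 83.1% of kept and 69.3% of lost sites (61.2% to 76.4%), and a lincRNA gene to 8.57% and 17.5% (12.1% to 24.7%).

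The 20 lost sites of highest score were mostly far from promoters, with 4 proximal, 11 intronic or exonic and 5 intergenic. The highest of all was an intronic site with its nearest TSS in Eps15l1, which encodes an endocytic adaptor (chr8:72390131-72390680), with a score of 1.57. Its pachynema peak stood at percentile 97.1 of that list, and the nearest diplonema peak was 29931 bp away. The intronic site near Impad1 (chr4:4782301-4782980) scored 1.50 and ranked at percentile 99.3 in pachynema. It is a marginal case, since a diplonema peak lay 341 bp from it. Intronic sites near Fry (chr5:150373101-150373830, 1.48) and Sik3, a salt-inducible kinase gene (chr9:46046411-46046990, 1.46), had their nearest diplonema peaks 34991 and 32871 bp away. Near Hhat, which encodes the acyltransferase of Hedgehog proteins, an intronic site scored 1.39 and lay 110941 bp from a diplonema peak. The 4 proximal sites among these 20 were at TSSs of Rmdn2 (1.47), Tmem219 (1.45), Zfp7 (1.41) and Fam135a (1.39). The Fam135a site (chr1:24086011-24086530) had the highest pachynema rank of the lost proximal sites, at percentile 99.6, while another strong site of the same gene was kept and its best diplonema peak stood at percentile 96.9. At Rmdn2 too a diplonema peak was called at another TSS, at percentile 62.9.

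Among lost intergenic sites the highest scores were 1.45 near Gm13373, a lincRNA gene (chr2:28287031-28287750), and 1.42 near Gm14089, an antisense gene. Sites near the processed pseudogenes Gm37835 (1.40) and Gm4034 (1.38) and near Pole4, which encodes a subunit of DNA polymerase epsilon (1.38), followed. These 5 lay 28658 to 88214 bp from the nearest TSS and 7491 to 84631 bp from the nearest diplonema peak. All 5 had a pachynema peak, at percentiles from 84.3 to 97.7. The 5 kept intergenic sites of highest score, near Dsg1c, Lrpap1, Gm13668, Slc28a3 and 4930568G15Rik, scored from 1.49 to 1.53. Their diplonema peaks ranged from percentile 58.0 at Lrpap1 to 98.2 at Dsg1c.

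The kept site of highest score was intronic, with its nearest TSS in Ttll5, a tubulin polyglutamylase gene (chr12:85903891-85904480). It scored 1.63, and its pachynema and diplonema peaks stood at percentiles 99.9985 and 97.9. The next was the promoter of Bcl7b (chr5:135168521-135169140), with 1.62 and percentiles of 100 and 99.8. A high score in leptonema/zygonema did not always go with a high rank in diplonema. Kept intronic sites near Gm38619 and Ermard scored 1.55 and 1.54, with diplonema percentiles of 55.6 and 46.0. At Strbp, which encodes a spermatid RNA-binding protein, a kept intronic site scored 1.53, ranked at percentile 99.996 in pachynema and at 84.0 in diplonema.

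Genes were then sorted by the state of the strong sites under 1000 bp from their TSSs. Of 3913 protein-coding genes with such a site, 3809 had none lost, 11 had some lost and 93 had all lost (2.38%, 1.94% to 2.90%). For 64 of the 93 no diplonema peak was called at any TSS of the gene, and 61 of these had a pachynema peak. At 51 of the 64 the lost site was under 1000 bp from the 5′ end of the gene, and at 13 it lay farther inside. Of the 29 genes that still had a diplonema peak at a TSS, 25 had lost an internal site. For lincRNA genes, 29 of 494 had all strong sites lost (5.87%, 4.12% to 8.30%), and none of these 29 had a diplonema peak. For antisense genes the count was 9 of 330 (2.73%).

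The 15 protein-coding genes with no diplonema call and the highest scores shared 13 sites. Zfp7, a zinc finger gene, and Gm49527 had the same site (chr15:76878981-76879540), with a leptonema/zygonema score of 1.41 and a pachynema peak at percentile 85.6. Nme1, a nucleoside diphosphate kinase gene, and Gm20390 shared a site (chr11:93968071-93968920) with a score of 1.37 and a pachynema percentile of 92.3. The promoter of Wnt9a, a signalling ligand, scored 1.36 and ranked at percentile 89.6 in pachynema. Cacybp, which encodes a calcyclin-binding protein, scored 1.35 with percentile 87.2, and Snai3, a Snail family gene, 1.34 with percentile 90.03. Nr4a2, an orphan nuclear receptor that belongs to the immediate early genes in many cells, scored 1.32 with a pachynema percentile of 78.7. Its relative Nr4a1 was kept, with a best diplonema percentile of 87.6. The lost site of Mycbp scored 1.32 and had the lowest pachynema percentile of those of the 15 with a pachynema peak, 31.2. Spatc1l (chr10:76561751-76562710), a gene of the sperm head and tail junction, scored 1.36 and had no pachynema peak either.

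In 5 of these 15 genes the site was an internal start. It lay 24187 bp from the 5′ end in Tmem219, 35984 bp in Rbl2, which encodes the pocket protein p130, and 134262 bp in Col19a1, a collagen gene. In 5430419D17Rik it lay 36129 bp and in 4931429L15Rik 3756 bp inside. Their leptonema/zygonema scores ran from 1.30 to 1.45, and all 5 had a pachynema peak, from percentile 64.6 to 94.5. Other genes further down the 64 were picked out after their values were seen. Tex15, which is needed for meiotic recombination and is on none of the gene lists below, scored 1.18 with a pachynema percentile of 85.4. Fance, a Fanconi anaemia gene, scored 1.26 with percentile 92.2, and Bax, a pro-apoptotic gene, 1.26 with percentile 58.0. Tekt2, which encodes a tektin of the sperm tail, scored 1.25 with percentile 68.7, and Tssk4, a testis-specific kinase gene, 1.19 with percentile 62.8.

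No gene on the lists of meiosis and germ cell development lost a strong site under 1000 bp from a TSS. Over all 16 lists, which also hold housekeeping and zinc finger families, 188 genes had such a site and 185 had none lost (98.4%), beside 97.3% of all protein-coding genes with a strong site, so the 2 shares are close. The share of all protein-coding genes that have a strong site is not given here. How many members of a list had one is therefore description only, and does not show whether having one is usual. Among genes of double-strand break formation and repair 16 of 31 had a strong site, and all were kept. They included Hormad1, Meiob and Atr, whose diplonema peaks stood at percentiles 99.85, 99.97 and 98.9. In the same list the lowest diplonema percentile was that of Mei4, needed for break formation (49.9). Of 16 genes of the synaptonemal complex and cohesin 7 had a strong site, all kept, with Sycp1 at percentile 99.1, Smc1b at 99.1 and Stag3, a meiotic cohesin subunit, at 76.7. Rec8, the meiotic kleisin, was at the other end, with a leptonema/zygonema score of 1.37, a pachynema percentile of 87.1 and a diplonema percentile of 4.98.

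All strong sites were likewise kept at the genes of DNA replication (16 of 38 genes had one), the piRNA pathway (9 of 20), crossover formation (3 of 13), meiotic entry (3 of 13), spermatocyte transcription regulators (8 of 18), spermatids (12 of 32), spermatogonia and early germ cells (2 of 31, Ddx4 and Lin28b), immediate early and stress genes (6 of 23) and proteasome subunits (12 of 38). The immediate early list does not hold Nr4a2, whose site was lost. Since 97.3% of all protein-coding genes with one had none lost, these counts show nothing particular to the lists. Over all protein-coding genes with a strong site, the best diplonema peak had a median percentile of 90.02 among the 3845 of 3913 genes with such a peak. Above it were the medians for spermatid genes (97.1), proteasome subunits (95.7), piRNA pathway (95.4), double-strand break (94.5), immediate early (93.1) and replication genes (92.0). Below it were those for Zfp (89.6), ribosomal protein (87.7), crossover (86.6), transcription regulator (86.4), spermatogonial (86.0), synaptonemal complex and cohesin (83.6) and meiotic entry genes (81.1). Among replication genes Rfc4, a clamp loader subunit, had the lowest diplonema percentile, 52.4. The list members with a lost site included Zfp7 and Zfp24, out of 72 Zfp genes with a strong site. No somatic testis marker, clustered histone gene or Hox gene had a strong site, which is likewise given without the share over all genes.

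Lost sites were almost all called in pachynema. A pachynema peak overlapped 6360 of 6360 kept sites and 551 of 559 lost sites (98.6%, 97.2% to 99.3%), against 73.5% of peaks outside the top 10%. The rank of that peak separated the groups more. Its median percentile in the pachynema list was 94.0 for kept sites and 78.7 for lost sites, with quartiles of 89.0 and 97.3 and of 66.0 and 85.6. It reached percentile 90 at 71.3% of kept and 14.3% of lost sites. Read the other way, 80 of 4612 strong sites at or above percentile 90 in pachynema were lost (1.73%), against 245 of 1850 from percentile 75 to 90 (13.2%), 184 of 395 from 50 to 75 (46.6%) and 42 of 54 below 50 (77.8%). The same order held in both position classes, with 0.665% of proximal and 4.05% of distal sites lost in the highest of these ranges.

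**Figure D3:**
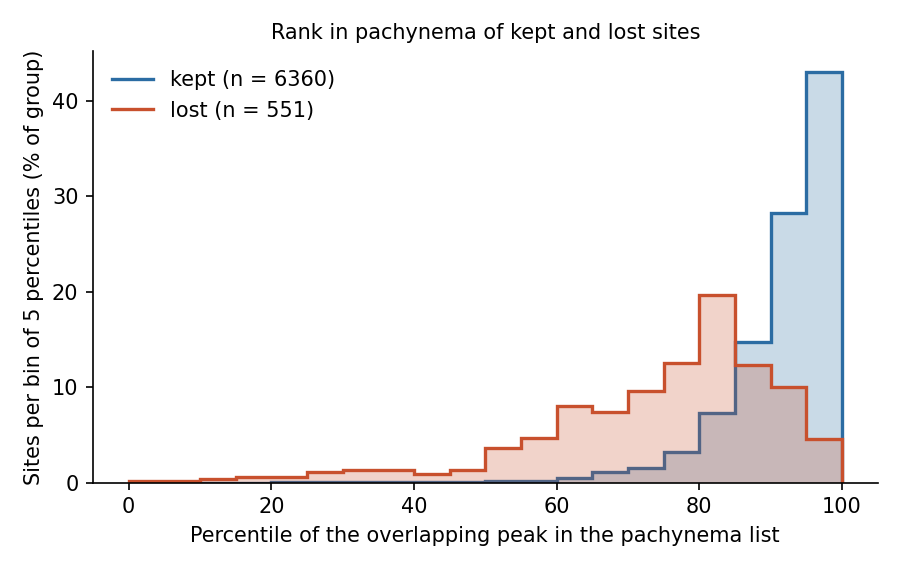
Percentile of the overlapping peak in the pachynema list (x axis) for kept and lost strong sites, as the share of each group per bin (y axis, %); the 8 lost sites with no pachynema peak are not drawn. Kept sites pile up at the right, with a median of 94.0, and lost sites spread lower, with a median of 78.7.

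The 8 lost sites with no pachynema peak were the promoters of Spatc1l (1.36), Gm47429 (1.30) and Dnajc9, a co-chaperone gene (1.18), intronic sites near Tbpl1, a TBP-like factor needed in spermatids (1.31), Gm48581 (1.21), Gm47026 (1.19) and Gm17097 (1.19), and an intergenic site near Gm8047 (1.17). Their nearest diplonema peaks were 7181 to 76251 bp away.

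Kept sites did not rank equally high in diplonema. The best overlapping diplonema peak had a median percentile of 83.3, with quartiles of 64.4 and 93.4. For proximal kept sites the median was 88.0 and for distal ones 70.4. Outside the top 10% the order was the same, with medians of 65.1 for proximal and 43.2 for distal peaks that had a diplonema peak. Percentile 90 was reached by 44.1% of proximal and 18.1% of distal kept sites. At the other end, 925 kept sites (14.5%) had a diplonema peak under percentile 50, and 98 (1.54%) had one under percentile 10. The lowest was the promoter of Gm46348, a lincRNA gene, with 1.20 in leptonema/zygonema and a diplonema percentile of 0.0363. It is a marginal case, since the diplonema peak shared 10 bp with the edge of the site. Over all kept sites the shared length had a median of 520 bp and was under 50 bp at 35 sites (0.550%). The promoter of Mtmr7, a myotubularin-related gene, scored 1.29 and was at percentile 0.554 in diplonema and 90.1 in pachynema. Near Ssbp2 an intronic site scored 1.32, with 0.0984 and 98.2, and near Ccng2 an intergenic site scored 1.28, with 0.368 and 97.6. Of the 10 kept sites of lowest diplonema rank, 4 were promoters and 6 were distal, and their pachynema peaks stood at percentiles from 66.9 to 98.2.

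**Figure D4:**
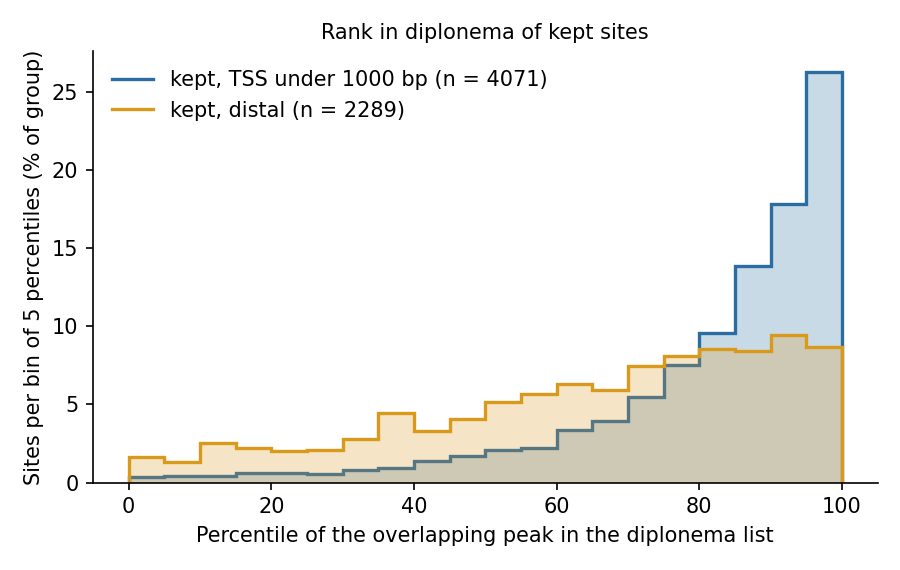
Percentile of the best overlapping peak in the diplonema list (x axis) for kept strong sites under 1000 bp from a TSS and for distal kept sites, as the share of each group per bin (y axis, %). The proximal group has its median at 88.0 and the distal group is spread more widely, with its median at 70.4.

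Few lost sites were near misses. The nearest diplonema peak lay at a median of 30941 bp, with quartiles of 13531 and 80986 bp. It was within 100 bp at 8 sites and within 1000 bp at 26 (4.65%), and farther than 50000 bp at 204 (36.5%). The closest were the promoter of Gm20942, a processed pseudogene, and an intergenic site near Gm38373, each directly next to a diplonema peak (1 bp). The proximal sites of Cercam and Krcc1 were 51 bp away, the latter 721 bp from its TSS, and that of Dmwd 61 bp.

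Lost proximal sites had fewer CpG dinucleotides than kept ones. The central 200 bp held a median of 14 CpG at kept proximal sites and 4 at lost proximal sites, with a median GC content of 61% and 54%. Proximal peaks outside the top 10% had medians of 8 CpG and 55%, so in GC content the lost sites were near them. At distal sites the medians were alike, with 2 CpG in both groups and a GC content of 47% and 47.5%. Proximal sites with an observed-to-expected CpG ratio of 0.6 or more were lost in 50 of 2708 cases (1.85%, 1.40% to 2.43%), and those under 0.6 in 87 of 1500 (5.80%, 4.73% to 7.10%). Distal sites with a ratio of 0.6 or more were few, and 10 of 136 were lost (7.35%, 4.04% to 13.0%), against 412 of 2575 under 0.6 (16%, 14.6% to 17.5%). Sequence that was at least 50% soft-masked as repeats made up the window at 4.97% of kept and 8.77% of lost sites, against 12.3% outside the top 10%. Those shares pool proximal and distal sites. Split by class, the median soft-masked share of the window was 0% at both kept and lost proximal sites. At distal sites it was 10% for kept and 9.25% for lost ones.

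**Figure D5:**
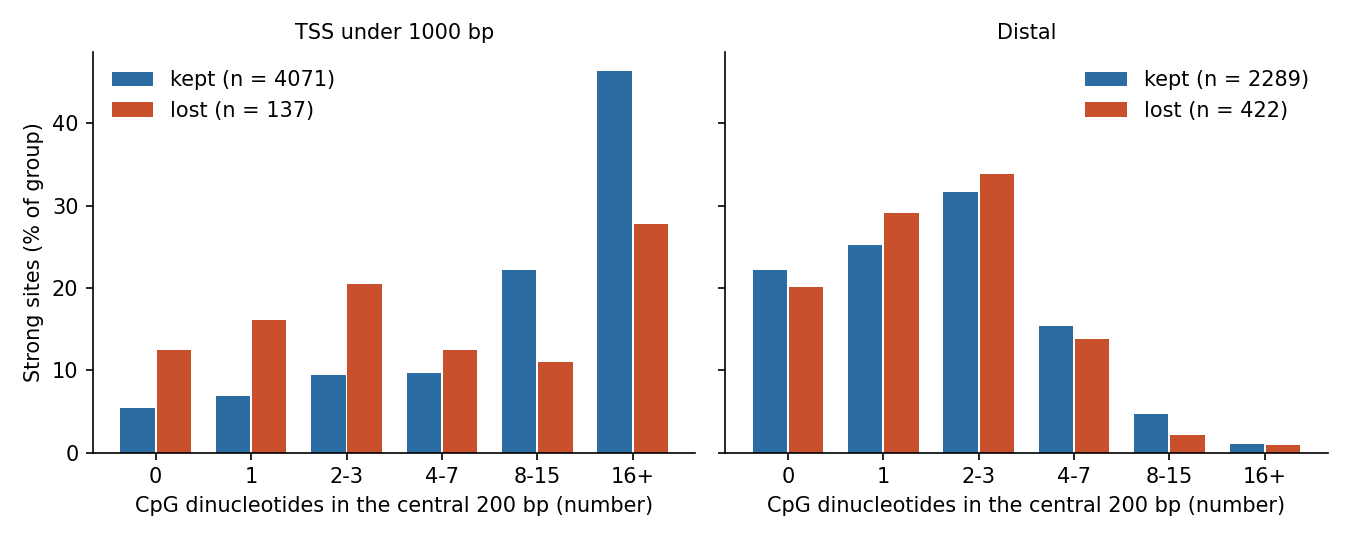
Number of CpG dinucleotides in the central 200 bp (x axis, bins) of kept and lost strong sites, for sites under 1000 bp from a TSS (left) and distal sites (right), as the share of each group (y axis, %). With 16 or more CpG stood 46.4% of kept and 27.7% of lost proximal sites, while the distal groups look alike.

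Short motifs were counted as present or absent in the same windows, on both strands. At proximal sites the GC box GGGCGG was present in 46.9% of kept and 32.1% of lost windows, against 32.7% of all autosomal proximal windows of this length. The ETS core CCGGAA was present in 21.2% and 10.9%, against 11.8%, and TGACG, the core of the CREB motif, in 28.5% and 18.2%, against 17.9%. For these 3 strings the shares at lost proximal sites were near those of all proximal windows. For others they were nearer to the kept sites. GTTGCNA, used for RFX factors, was in 13.0% of kept and 16.1% of lost windows (10.9% to 23.1%), against 8.04%. GCGCATG, used for NRF1, was in 5.82% and 5.11% (7 of 137 windows, 2.50% to 10.2%), against 2.87%. CNGTTG, used for the MYB family, stood in 29.1% and 29.9% (22.9% to 38.1%), against 25.6%. For GCGCATG and CNGTTG the interval at lost sites also covers the share of all proximal windows. TGTANC, used for the DMRT family, went the other way at proximal sites, with 16.4% of kept and 27.0% of lost windows (20.3% to 35.0%), against 19.7%. TGANTCA, the AP-1 motif, stood in 3.76% and 7.30% (10 of 137 windows), against 4.33%.

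At distal sites the kept and lost windows were close for the RFX and MYB strings, which were more common in both than in all windows. GTTGCNA was present in 21.01% of kept and 19.2% of lost distal windows, against 12.6% of all autosomal distal windows. CNGTTG was present in 37.5% and 36.7%, against 31.2%. TGTANC, higher in lost than kept windows at proximal sites, was lower in lost ones here, with 27.9% of kept and 24.2% of lost windows (20.3% to 28.5%), against 27.4%. TGANTCA too was not higher in lost distal windows, with 9.04% and 8.53%, against 7.58%. The CCAAT box stood in 24.9% and 22.3%, against 26.1%, AGATAA, used for GATA factors, in 9.92% and 11.1%, against 9.78%, and the E-box CACGTG in 3.36% and 3.79%, against 3.33%. GCGCATG stood in 0.917% and 1.18%, against 1.18%, AAGATGG, used for YY1, in 3.89% and 2.37% (1.29% to 4.31%), against 4.67%, and the TATA box TATAAA in 11.1% and 9.0%, against 10.9%. The GC box stood in 4.89% and 4.74% of distal windows, against 6.58%, the ETS core in 3.93% and 3.08%, against 4.76%, and TGACG in 11.4% and 10.4%, against 10.1%. These strings partly depend on GC content, and a match is a string of letters and not a bound site.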

How the data were processed

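leChRO-seq libraries of 3 prophase I substages, 4 per substage, were analysed as 3 deposited lists of dREG peaks, each called once on the merged libraries of its substage. Per the paper's methods and the submitters' processing notes, reads were deduplicated by molecular identifier, trimmed with cutadapt and mapped with BWA to mm10, and dREG was run at default settings by the authors. The dREG version is not given in the sources used here. The deposited values are a dREG score per peak, on a scale that can differ between lists, and a p-value, which served only as a filter in an alternative. The lists hold no read counts, the study's normalisation factors per library were not used, and the depth behind a peak was not analysed here. No value has a replicate error.

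Peaks in the top 10% of the leptonema/zygonema list, 7110 by count, had a score of 1.17 or more, and 7135 remained with ties, of which 6919 were autosomal (chromosomes 1 to 19). Overlap needed 1 bp. Sites with an edge less than 1000 bp from a TSS of GENCODE M21 were called proximal, and others exonic, intronic or intergenic by its midpoint. Percentiles are within a peak's own list. Base composition and motifs were read from GRCm38 within 100 bp of the midpoint. Intervals are Wilson intervals (95%) and reflect the number of sites only. Lists are pooled, so no test was made.

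Genes and sites named were the 20 lost and 10 kept sites of highest score, the 10 kept sites of lowest diplonema rank, the 15 protein-coding genes of highest score with all strong sites lost and no diplonema peak, list members with a lost site, the 5 highest intergenic sites of each kind and 3 sites on each side of the threshold, ties by position. Other genes named, such as kept list members, sites without a pachynema peak and near misses, were picked after their values were seen. The members and lists were chosen with earlier results of these data known. The interval steps were tested on simulated data. The alternatives varied the top share, the overlap rule, the diplonema p-value, joining of close peaks and the TSS set. Calculations used pandas 2.3.3 and numpy 2.4.6 under Python 3.11.15, and figures matplotlib 3.10.9. Results for a few genes are not reported here.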

Additional observations from a re-analysis of the deposited data

Results flagged for a closer look

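Strong leptonema/zygonema peaks on the X chromosome are outside the autosomal rule and were looked at separately. Of 213 such peaks 32 had no diplonema peak (15.02%, 10.8% to 20.4%), a share above the 8.08% of autosomal strong sites. On the Y chromosome 0 of 3 were lost. The difference was not tested, since the lists are pooled. Neither the share over all X chromosome peaks nor the position classes of these 213 are given here, and the lost share differed between position classes on autosomes.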

How the results depend on the processing

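No paired analysis was possible because the 4 libraries of each substage were merged before calling, so no replicate could be blocked or left out. Taking the top 10% of autosomal peaks alone gave the same sites. Of the other 41 alternative shares, 32 stayed inside the Wilson interval of the main share and 9 moved. The lost share of 8.08% became 5.89% in the top 5%, 14.6% in the top 20%, 8.96% when the midpoint had to lie in a diplonema peak and 11.0% with diplonema peaks of p-value at most 0.01. The proximal share of kept sites, 64.0%, became 60.7% in the top 5%, 66.0% in the top 20% and 53.7% with protein-coding TSSs, and that of lost sites, 24.5%, became 17.2% with protein-coding TSSs. The pachynema share of lost sites, 98.6%, became 97.2% in the top 20%. The median diplonema percentile of kept sites ran from 78.6 to 85.4 under 3 alternatives chosen after seeing the data. Under every alternative the proximal share was higher among kept than lost sites. Depth cannot be read from these lists, so a missing call does not set a limit on activity.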

Other observations

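The lost share of strong sites differed between autosomes, from 4.74% on chromosome 19 (10 of 211, 2.59% to 8.50%) to 14.3% on chromosome 18 (34 of 237, 10.5% to 19.4%). The other autosomes lay between 5.26% and 10.6%. Neighbouring peaks can share a region, so these counts are not independent, and the spread between autosomes was not tested. The position classes and the share over all peaks of each autosome are not given here.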
